A study of Bos taurus with 28 samples.

Results

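The genes described here encode the machinery that moves proteins into the endoplasmic reticulum (ER), between ER and Golgi, and through endosomes. They were chosen by gene symbol in the array's annotation: signal recognition particle and translocon genes, COPI and COPII coat genes, ARF and RAB GTPases, TRAPP and golgin tethers, syntaxins, VPS genes and adaptor subunits. Of 8073 genes with a named probe, 147 matched, on 151 probes. Of these, 140 had enough values to be tested, out of 6958 tested genes. Another probe carried both SEC24A and SEC24B in the annotation and was not used. The choice used no measured value of the genes, but it was made with earlier results of these data known.

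Liver RNA of 14 multiparous Holstein dairy cows was compared on 28 cDNA microarrays. The 7 healthy cows were fed ad libitum early after calving. The 7 ketotic cows were healthy at examination on day 4 after calving and were then restricted to 50% of their intake, from day 5 by the design text and from day 4 by the sample labels, until clinical ketosis or at the latest day 14, after which they were fed freely again and treated where needed. Restricted feeding and ketosis therefore cannot be told apart, and the sources used here do not give the day on which each liver was sampled. Every array set the liver of 1 cow against the same reference RNA made from several cattle tissues, with the dyes exchanged between the 2 arrays of a cow. A value is the log2 ratio of liver over reference, relative to the median of its array, averaged over both arrays, so n is at most 7 cows per group. In such bulk RNA, fewer cells of a type and less RNA per cell cannot be told apart.

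The liver exports most plasma proteins and lipoproteins, and the cells depend on this pathway. A ribosome that makes a secreted protein is caught by the signal recognition particle, docks at the SEC61 channel and threads the protein into the ER. COPII vesicles carry cargo from the ER to the Golgi, COPI vesicles return escaped proteins, tethers and SNAREs join vesicles to their targets, and RAB GTPases mark each compartment. Adaptor complexes, retromer, HOPS and ESCRT sort receptors between Golgi, endosomes, plasma membrane and lysosome.

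The direction of the ratios is likely rather than stated, and rests on the dye named in each title. For 1 ketotic array the label fields name Cy5 for both channels, while its title and source names put the liver in Cy5 and the reference in Cy3. Once the sign of the Cy3 liver arrays was turned, the median of 11 hepatocyte markers lay above the array median on 28 of 28 arrays (lowest 2.55). Healthy cow 7 stood apart, with a correlation of at most 0.462 with any other cow across probes, and its own arrays correlated at 0.585. Values without it are given beside many of the results it changes. Spots without a ratio made up 11.9% ± 2.79 (SD, n = 7) of a healthy cow's arrays and 16.4% ± 4.48 (SD, n = 7) of a ketotic cow's. The median absolute deviation of the log2 ratios was 0.669 ± 0.0844 in healthy and 0.854 ± 0.129 in ketotic cows. Both measures were highest in ketotic cow 5, at 25.0% and 1.03.

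More traffic genes were lower than higher in ketotic liver, in each of the 5 classes. Of 140 tested members 32 fell and 1, VPS26B, rose (limma, Benjamini-Hochberg adjusted p under 0.05 over all tested genes). The background in the same fit was 12.4% of all tested genes called lower and 0.92% called higher. The members' share called lower was 22.9%. Their median difference, ketotic minus healthy, was -0.31 on the log2 scale, beside -0.18 over all tested genes, and 109 of 140 differences were negative, beside 67.2% of all genes. The falls were small: they ran from 1.36-fold to 2.15-fold, with a median of 1.65-fold, and 5 reached 2-fold. In each of the 32, every ketotic cow with a value lay below the healthy mean. This follows largely from calling them on the same values, so it adds no separate evidence. In 12 of the 140 tested members, all among the 32, the groups did not overlap. Such a separation downward was seen in 375 of 6958 tested genes (5.39%). No member showed it upward, as 0.316% of all genes did. Without healthy cow 7, 38 of 139 members fell and 1 rose, with 18.4% of all genes called lower and 1.5% higher. All 32 falls were among those 38.

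Classes differed in how widely the shift was spread over their genes. ER entry genes had a median difference of -0.42, with 14 of 16 negative and 3 called. COPI and COPII genes had a median of -0.37, with 23 of 26 negative and 7 called. Endosomal genes had a median of -0.26, with 30 of 36 negative, 7 called lower and 1 higher. With all cows RAB genes had a median of -0.16, close to that of all genes, with 27 of 36 negative and 10 called. Golgi tethers and SNAREs had a median of -0.14, with 14 of 24 negative (58.3%) and 5 called. Over all tested genes 67.2% of differences were negative and 12.4% were called lower. The shares called lower were 18.8% (ER entry), 26.9% (COPI/COPII), 19.4% (endosomal), 27.8% (RAB) and 20.8% (Golgi). Without healthy cow 7 the medians were -0.52 (ER entry), -0.43 (COPI/COPII), -0.28 (endosomal), -0.28 (RAB) and -0.17 (Golgi), beside -0.19 for all genes. The RAB median then lay below that of all genes and level with the endosomal one. These class contrasts were described and not tested.

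**Figure D1:**
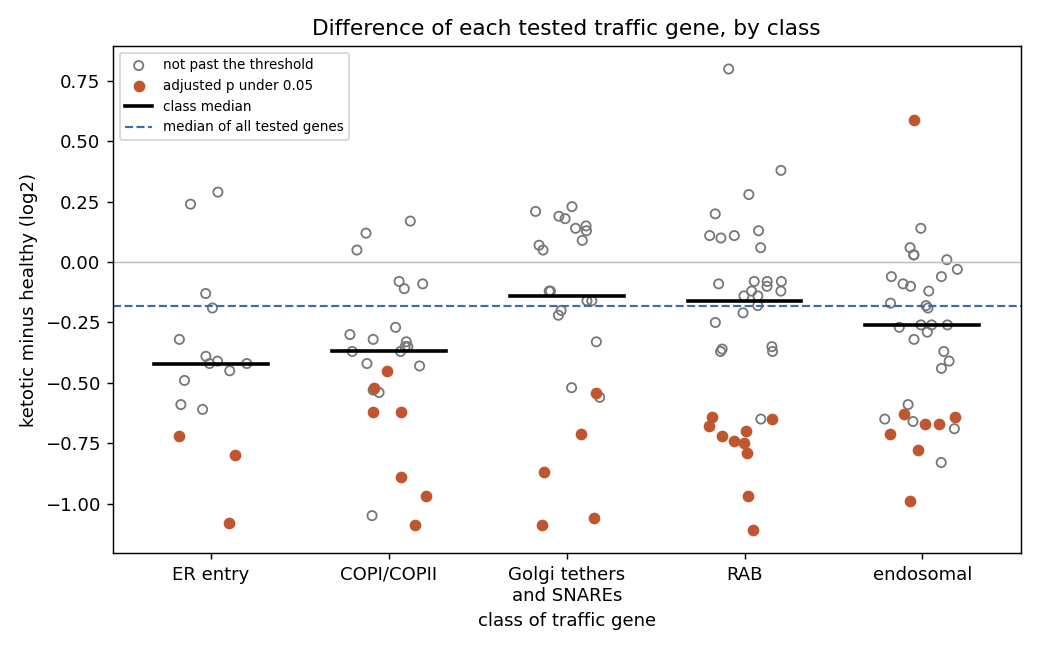
Difference between ketotic and healthy cows on the log2 scale for the tested traffic genes of 5 classes; filled points passed at an adjusted p under 0.05, thick lines are class medians and the dashed line is the median of all tested genes (-0.18). The ER entry (-0.42) and COPI/COPII (-0.37) medians lie below the dashed line, and VPS26B, at 0.59, is the filled point above 0.

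At the entry to the ER, SRP14, SEC61A1 and SEC61B fell. SRP14 binds the Alu part of the signal recognition particle RNA and slows elongation. Its log2 ratio was -1.34 at the lowest, -1.08 at the median and -0.65 at the highest in healthy cows, and -3.21, -1.78 and -1.66 in ketotic cows. Every ketotic cow lay below every healthy cow, with ketotic cow 5 the lowest. The difference was -1.08 (SE 0.231, 2.11-fold lower, adjusted p = 0.00920). The other 4 particle proteins did not pass. SRP54, the GTPase that binds signal peptides, had a difference of -0.61 (adjusted p = 0.136), SRP19 of -0.59, SRP68 of -0.19 and SRP72 of -0.13. Healthy cow 7 was the highest healthy cow for SRP19 and SRP68, and without it their differences were -0.40 and -0.08.

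SEC61A1 forms the protein-conducting channel itself, and SEC61B is a small subunit beside it. SEC61A1 ran from 0.13 over a median of 0.55 to 0.93 in healthy cows and from -0.60 over -0.30 to 0.25 in ketotic cows. Only ketotic cow 4 reached into the healthy range. The fall was 1.65-fold (log2 difference -0.72, SE 0.160, adjusted p = 0.0106). SEC61B ran from -0.53 over -0.07 to 0.38 in healthy and from -1.74 over -0.89 to -0.34 in ketotic cows. Here too 6 of 7 ketotic cows were below all healthy cows, and the fall was 1.74-fold (SE 0.201 on the log2 scale, adjusted p = 0.0186). The third subunit, SEC61G, had a difference of -0.41 (adjusted p = 0.276), and the paralogue SEC61A2 of 0.24 with a wide spread (SE 0.661). SEC62 and SEC63, which help post-translational import, had differences of -0.32 and -0.39 (adjusted p = 0.516 and 0.253).

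None of the 3 translocon-associated (TRAP) proteins passed. SSR2 had a difference of -0.45 (adjusted p = 0.0550) with 5 of 7 ketotic cows below all healthy cows, SSR3 of -0.42 (0.140) and SSR1 of 0.29 (0.371). The catalytic subunits of signal peptidase, SEC11A and SEC11C, had differences of -0.42 and -0.49 (adjusted p = 0.192 and 0.196). Without healthy cow 7, which was the lowest healthy cow for SEC62, 3 more genes of this class passed. SEC11A then had a difference of -0.56 (adjusted p = 0.0267), SEC11C of -0.66 (0.0253) and SEC62 of -0.59 (0.0356).

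In the COPI coat, COPG1, COPZ1 and COPB1 fell. COPG1 is the gamma subunit, which binds cargo and ARF. Healthy cows lay between -0.27 and 0.09 (median -0.11) and ketotic cows between -1.69 and -0.71 (median -1.11). This was among the tightest healthy groups of the set, and the groups did not overlap. COPG1 fell 1.95-fold (log2 difference -0.97, SE 0.151, adjusted p = 0.00250), the smallest adjusted p of all members. COPB1, the beta subunit, ran from -0.75 over -0.20 to 0.34 in healthy cows and from -1.22 over -0.91 to -0.62 in ketotic cows, a 1.54-fold fall (adjusted p = 0.0354). COPZ1, the zeta subunit, ran from -0.65 over -0.43 to 0.06 and from -1.10 over -1.02 to -0.61, a 1.43-fold fall (adjusted p = 0.0269). For these 2 genes the groups overlapped, by 2 ketotic cows in COPB1 and 1 in COPZ1. The lowest healthy value of COPB1 came from healthy cow 7. COPB1 lost its call without any one of healthy cows 1 to 4 or ketotic cows 2, 4, 5 or 7 (adjusted p up to 0.0705). COPZ1 lost it without healthy cow 5 or ketotic cow 2 or 7 (up to 0.0517). COPE, the epsilon subunit, had a difference of -0.30 (adjusted p = 0.274), and the paralogues COPG2 and COPZ2 had differences of -0.32 (0.550) and -0.43 (0.283).

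The p24 cargo receptors cycle between ER and Golgi in both coats. TMED4 ran from -0.74 over -0.51 to 0.01 in healthy cows and from -2.11 over -1.53 to -0.96 in ketotic cows. The groups were fully apart, and the fall was 2.13-fold (log2 difference -1.09, SE 0.181, adjusted p = 0.00308). TMED9 ran from -0.08 over 0.65 to 1.12 in healthy and from -0.59 over -0.26 to -0.01 in ketotic cows, a 1.85-fold fall (SE 0.174 on the log2 scale, adjusted p = 0.00604). Its lowest healthy value came from healthy cow 7, and 5 of 7 ketotic cows were below it. TMED1 had a difference of -0.33 (adjusted p = 0.134) and TMED10 of -0.42 (adjusted p = 0.355). For TMED10 most of the difference came from healthy cow 7, at 2.32 beside a healthy median of 0.28: without it the difference was -0.13. TMED6 had values in only 3 healthy cows and was not tested.

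Of 10 tested COPII genes SEC24C and SEC13 fell; the median difference was -0.31 with 7 of 10 negative, and -0.41 with 3 called without healthy cow 7. SEC24C, a cargo-binding subunit of the inner coat, ran from 0.34 over 0.67 to 0.87 in healthy cows and from -0.33 over -0.02 to 0.17 in ketotic cows. No ketotic cow reached the healthy range. The fall was 1.54-fold (log2 difference -0.62, SE 0.136, adjusted p = 0.0102). SEC13, of the outer coat and also of the nuclear pore, ran from -0.61 over -0.45 to -0.03 and from -1.07 over -0.76 to -0.55, a 1.36-fold fall close to the threshold (adjusted p = 0.0453). It kept its call only when healthy cow 6, healthy cow 7 or ketotic cow 7 was left out, and the highest adjusted p without 1 cow was 0.0883. SEC23A, the GTPase activator for SAR1, had a difference of -0.35 (adjusted p = 0.260), its partner SEC23IP of -0.54 (0.133) and the exit site protein SEC16B of -0.37 (0.425). The SEC24 paralogues SEC24A and SEC24D had differences of 0.05 and -0.09, SEC31A, the outer coat partner of SEC13, of 0.12, and the ER exit site scaffold SEC16A of 0.17; none passed. Without healthy cow 7 the values of SEC24A and SEC31A were -0.38 and -0.17.

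SAR1B, the GTPase that starts COPII assembly and is known for the export of large lipoprotein particles, depended on 1 cow. Healthy cow 7 had a log2 ratio of -0.18, while the healthy median was 2.24 and the highest 2.45. Ketotic cows ran from 1.22 over 1.70 to 2.04. With all cows the difference was -0.27 (SE 0.338, adjusted p = 0.658). Without healthy cow 7 it was -0.62 (adjusted p = 0.00627). SEC22B, an ER to Golgi SNARE, had a difference of -0.53 (adjusted p = 0.0746) and had no value in healthy cow 7, but passed when that cow was left out of the whole fit (adjusted p = 0.0479). ARF2, ARF4 and ARF5, the GTPases that recruit COPI, had differences of -1.05, -0.37 and -0.11, and none passed. ARF2 varied most, from -2.50 to 0.76 among healthy cows, the highest being healthy cow 7. Without that cow the ARF2 difference was -0.66.

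Among Golgi tethers, 2 of 12 tested TRAPP genes fell. TRAPPC3 belongs to the core of the complex that activates RAB1. It ran from -0.89 over -0.01 to 0.30 in healthy cows and from -1.66 over -1.25 to -0.66 in ketotic cows, with 6 of 7 ketotic cows below all healthy cows. The fall was 2.08-fold (log2 difference -1.06, SE 0.202, adjusted p = 0.00549). TRAPPC1, also of the core, ran from -0.21 over 0.11 to 0.30 and from -0.98 over -0.71 to -0.12, a 1.63-fold fall (adjusted p = 0.00920). For both genes the difference was larger with the liver in Cy3 than in Cy5: -1.43 against -0.69 for TRAPPC3 and -1.04 against -0.37 for TRAPPC1. The TRAPP genes as a group had a median difference of -0.16, and the highest was 0.21.

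GOLGA2, the cis-Golgi matrix protein GM130, had values in 6 ketotic cows and fell 1.45-fold (adjusted p = 0.0401). Healthy cows ran from -0.79 to -0.03 and ketotic cows from -1.23 to -0.77, so the groups touched. The call was lost without any one of healthy cows 2, 3, 4 or 6 or ketotic cows 1, 2, 3, 6 or 7 (adjusted p up to 0.0857). GOLGA5 had a difference of -0.52 (adjusted p = 0.0706).

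Of 8 tested syntaxins, STX2 and STX8 fell. STX2, a plasma membrane SNARE, ran from -0.67 over -0.45 to 0.86 in healthy cows, the highest being healthy cow 7, and from -1.91 over -1.28 to -0.77 in ketotic cows. The groups did not overlap, and the fall was 2.13-fold (SE 0.239 on the log2 scale, adjusted p = 0.0101). STX8, an endosomal SNARE, had values in 6 healthy cows, from -0.39 over 0.04 to 0.30, and ran from -1.80 over -0.90 to -0.22 in ketotic cows. It fell 1.82-fold (adjusted p = 0.0275), and lost its call without healthy cow 2, 5 or 6 or ketotic cow 2 (up to 0.0610). The other 6 syntaxins did not pass. STX7 had a difference of -0.56 (adjusted p = 0.294), or -0.22 without healthy cow 7. STX3, STX5, STX6, STX10 and STX12 had differences of 0.05 to 0.23. The median over the 8 was 0.09, and -0.08 without healthy cow 7. STX5, the ER to Golgi syntaxin, had a difference of 0.13 (adjusted p = 0.854), or -0.14 without healthy cow 7, with healthy cows from -1.62 to 1.27.

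Of the 10 RAB genes that fell, 4 are assigned to early and recycling endosomes, 3 to late endosomes and autophagy and 2 to the ER and Golgi. Among 13 tested RABs of early and recycling endosomes, RAB22A, RAB5C, RAB5A and RAB11B fell. RAB5 proteins drive the fusion of early endosomes. RAB5C ran from -0.57 over -0.33 to -0.07 in healthy cows and from -1.48 over -0.95 to -0.70 in ketotic cows. These groups did not overlap (1.64-fold lower, SE 0.157 on the log2 scale, adjusted p = 0.0104). RAB5A ran from -0.69 over -0.42 to 0.14 and from -1.42 over -1.12 to -0.57, with ketotic cow 3 alone inside the healthy range (1.56-fold lower, adjusted p = 0.0226). RAB5B had a difference of -0.37 (adjusted p = 0.0884), so all 3 paralogues had negative differences and 2 passed.

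RAB11B, of recycling endosomes, was measured by 2 probes with differences of -0.67 and -0.63. It ran from -0.44 over -0.21 to 0.47 in healthy cows and from -1.13 over -0.73 to -0.57 in ketotic cows, without overlap (1.57-fold lower, adjusted p = 0.0152). RAB22A, which acts in early endosomal sorting, had the largest fall of all members: -1.47 over -0.78 to -0.39 in healthy cows against -2.64 over -1.93 to -1.15 in ketotic cows. Ketotic values spread widely, and 4 of 7 lay below all healthy cows (2.15-fold lower, SE 0.268 on the log2 scale, adjusted p = 0.0156). RAB4A, RAB4B and RAB35 of the same compartment had differences of 0.11, 0.11 and -0.08.

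On the late endosomal side RAB7A, RAB9A and RAB12 fell. RAB7A controls fusion with lysosomes and brings retromer to the membrane. It ran from -0.53 over -0.15 to 0.02 in healthy cows and from -1.34 over -0.80 to -0.64 in ketotic cows. Every ketotic cow was below every healthy cow (1.60-fold lower, SE 0.140 on the log2 scale, adjusted p = 0.00780). RAB9A, which returns mannose 6-phosphate receptors to the Golgi, fell 1.68-fold (adjusted p = 0.0330), and RAB12 fell 1.95-fold (adjusted p = 0.0188). RAB9A ran from -0.23 over 0.11 to 0.91 and from -1.36 over -0.46 to -0.09, with 6 of 7 ketotic cows below all healthy cows. RAB12 ran from -1.69 over -1.18 to -0.50 and from -3.17 over -2.17 to -1.45, with 5 of 7 below. RAB9A lost its call without any one of healthy cows 1, 3 or 6 or ketotic cows 5 or 7 (adjusted p up to 0.0664). RAB32, linked to mitochondria and lysosome-related organelles, fell 1.73-fold (adjusted p = 0.0301): healthy cows ran from 0.03 over 1.16 to 1.41 and ketotic cows from -0.52 over 0.37 to 0.51. Healthy cow 7 was its lowest healthy cow; without it the adjusted p was 0.00311, but the call was lost without any one of healthy cows 1, 3, 4, 5 or 6 or ketotic cows 5 or 7 (up to 0.0631).

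Of 8 tested RABs of the ER and Golgi, RAB2A and RAB6A fell. RAB6A, of retrograde Golgi traffic, ran from -0.87 over -0.42 to -0.10 in healthy cows and from -1.55 over -1.08 to -0.90 in ketotic cows (1.69-fold lower, SE 0.156 on the log2 scale, adjusted p = 0.00777). RAB2A, which acts between ER and Golgi, ran from -0.85 over -0.68 to -0.13 and from -1.96 over -1.16 to -0.91 (1.62-fold lower, adjusted p = 0.0175). Neither gene's groups overlapped, although the gap was narrow. RAB1A and RAB1B, which work with TRAPP at the entry to the Golgi, had differences of -0.14 and -0.18 (adjusted p = 0.788 and 0.524). None of the 8 tested RABs of exocytosis passed. RAB8A came nearest, with 6 of 7 ketotic cows below all healthy cows, a difference of -0.65 and 1 ketotic cow as low as -2.44 (adjusted p = 0.116). RAB27B, which docks secretory granules, had the second highest difference of all members, 0.80, on values in 5 healthy and 6 ketotic cows (SE 0.606, adjusted p = 0.425), and could not be tested without healthy cow 7.

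Retromer, the endosomal coat that returns receptors to the Golgi and plasma membrane, had a call in all 4 measured subunits in the main processing. The calls were not in 1 direction. None of the 4 passed with arrays scaled to one spread or with quantile normalisation. VPS35, the scaffold, ran from -1.29 over -0.79 to -0.48 in healthy cows and from -2.23 over -1.54 to -0.98 in ketotic cows (1.64-fold lower, SE 0.181 on the log2 scale, adjusted p = 0.0198). VPS29 ran from -1.06 over -0.68 to -0.55 and from -2.04 over -1.31 to -0.79 (1.59-fold lower, adjusted p = 0.0244). VPS26A ran from -1.32 over -0.87 to -0.23 and from -2.49 over -1.40 to -1.32 (1.71-fold lower, adjusted p = 0.0249). Ketotic cow 5 was lowest for all 3 genes, and 5 or 6 of 7 ketotic cows lay below all healthy cows. VPS29 lost its call without ketotic cow 7 (adjusted p = 0.0502).

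VPS26B, the alternative form of VPS26A in the complex, was the one member that rose. It ran from 0.05 over 0.30 to 1.02 in healthy cows and from 0.73 over 1.07 to 1.34 in ketotic cows. All 7 ketotic cows lay above the healthy mean, while the groups overlapped through the upper healthy cows, of which healthy cow 7 was highest. The difference was 0.59 (SE 0.176, 1.51-fold higher, adjusted p = 0.0365; 0.00928 without healthy cow 7). The call was lost without any one of healthy cows 1 to 4 or ketotic cows 1, 4, 5 or 7 (up to 0.0730), and the difference was positive on arrays of either dye (0.56 with liver in Cy3 and 0.62 in Cy5). With no centring of the arrays it was 0.19 (limma adjusted p = 0.415), and with one spread 0.43 (0.167).

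**Figure D2:**
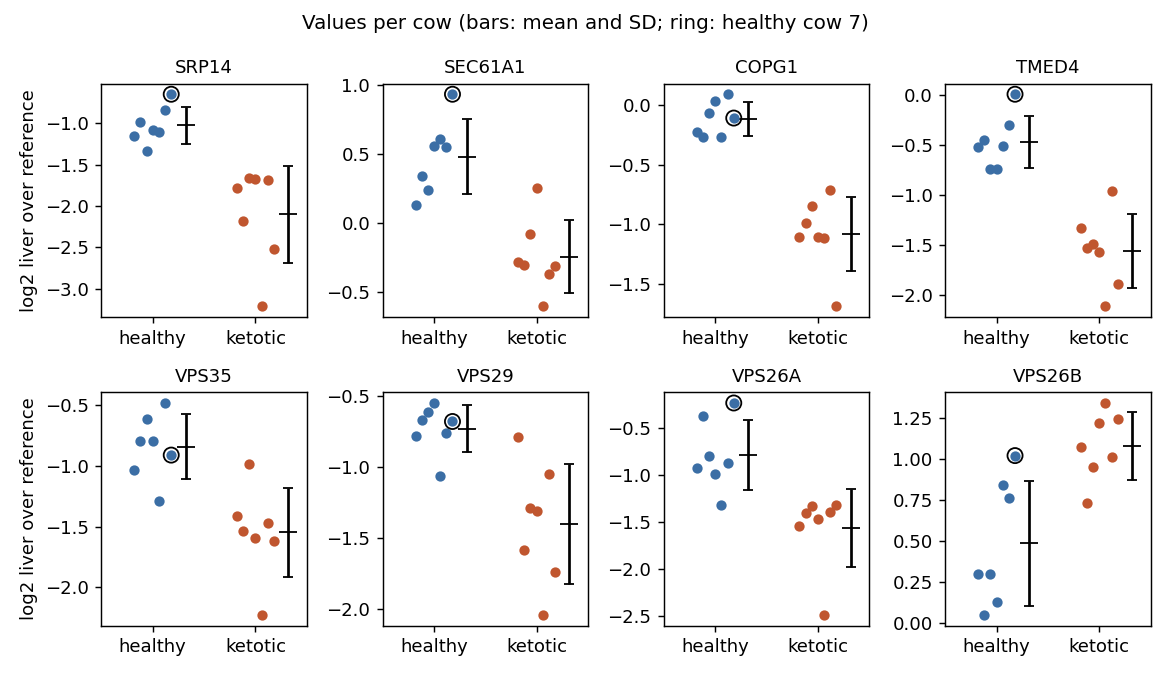
Log2 ratio of liver over reference, relative to the array median, in each of 7 healthy and 7 ketotic cows for 8 genes; bars are mean and SD and rings mark healthy cow 7. SRP14, COPG1 and TMED4 have no overlap between groups, while VPS26B lies higher in ketotic cows (median 1.07 against 0.30).

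The contrast within retromer was also taken inside each cow, where the centring of the arrays cancels. The pair was chosen after the values were seen, with 1 member already called higher and the other called lower, so its values are a description with no test. VPS26B minus VPS26A ran from 0.42 over 1.22 to 2.16 in healthy cows and from 2.13 over 2.55 to 3.83 in ketotic cows. A single ketotic cow lay inside the healthy range. The mean was 1.27 ± 0.534 (SD, n = 7) against 2.64 ± 0.559 (SD, n = 7), a difference of 1.37. It was 1.37 without healthy cow 7 and 0.97 with arrays scaled to one spread.

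A further 7 pairs of sister genes, each with 1 member already called lower, are given in the same way and were not tested either. RAB7B minus RAB7A ran from 0.58 over 0.87 to 1.56 in healthy cows and from 1.56 over 1.68 to 2.14 in ketotic cows, a difference of 0.81, or 0.49 with one spread. RAB7B itself had a difference of 0.13 (adjusted p = 0.723). The within-cow difference changed by 0.44 for VPS33B minus VPS33A, 0.64 for COPG2 minus COPG1, 0.92 for RAB6B minus RAB6A, 0.88 for SEC61A2 minus SEC61A1, 0.09 for COPZ2 minus COPZ1 and 0.02 for AP1M1 minus AP1M2. COPZ2 minus COPZ1 changed sign without healthy cow 7 (-0.14). RAB6B minus RAB6A spread widely, with an SD of 1.79 in 6 healthy and 1.2 in 7 ketotic cows. So did SEC61A2 minus SEC61A1, with an SD of 1.53 in 7 healthy and 0.687 in 5 ketotic cows. In both pairs the groups overlapped, as they did for VPS33B minus VPS33A, COPG2 minus COPG1, COPZ2 minus COPZ1 and AP1M1 minus AP1M2.

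In other endosomal complexes single subunits fell. VPS33A, of the HOPS and CORVET tethers, ran from -0.03 over 0.22 to 0.53 in healthy cows and from -0.60 over -0.36 to 0.04 in ketotic cows (1.54-fold lower, SE 0.138 on the log2 scale, adjusted p = 0.0104). The other 6 tested genes of that group, VPS11, VPS16, VPS18, VPS33B, VPS39 and VPS41, did not pass. With all cows VPS39 had the most negative difference among them, -0.59 (adjusted p = 0.235), with healthy cow 7 its highest healthy cow. Without that cow it was -0.28, and VPS41 (-0.35) and VPS16 (-0.33) lay lower. VPS25, of ESCRT-II, which sorts ubiquitinated receptors for breakdown, ran from 0.06 over 0.47 to 0.84 and from -0.56 over -0.21 to 0.01. Its groups did not overlap (1.56-fold lower, SE 0.153, adjusted p = 0.0147). VPS28, VPS36 and VPS4A of the ESCRT pathway had differences of -0.29, -0.44 and -0.03. Without healthy cow 7, the highest healthy cow for each, they were -0.21, -0.17 and 0.16. None of the 4 GARP genes, which tether endosomal vesicles to the Golgi, passed; VPS51 had a difference of -0.41 (adjusted p = 0.110).

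Of the clathrin adaptors, AP1M2 and AP3M1 fell. AP1M2 is the mu subunit of the epithelial form of AP-1. Healthy cows ran from -0.67 over -0.58 to -0.14 and ketotic cows from -1.59 over -1.11 to -0.88, without overlap (1.59-fold lower, SE 0.150 on the log2 scale, adjusted p = 0.0108). The mu subunit of the ubiquitous form, AP1M1, had a difference of -0.65 (adjusted p = 0.0525) with healthy cow 7 as high as 1.02; without that cow it was -0.47 (adjusted p = 0.0282). AP3M1, of the adaptor that serves lysosomal membrane proteins, ran from -1.64 over -0.90 to -0.11 and from -2.42 over -2.03 to -1.35 (1.98-fold lower, SE 0.235, adjusted p = 0.0147). AP2S1, the single AP-2 gene measured, had a difference of -0.66 (adjusted p = 0.111), and the 2 AP-4 genes had differences of -0.17 and -0.18. Without healthy cow 7 these differences were -0.44, -0.02 and -0.15.

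The symbol rule also matched SEC14L1 and SEC14L6, lipid-binding proteins rather than coat components. SEC14L6 ran from 0.75 over 3.19 to 3.95 in 6 healthy cows and from 3.46 over 3.84 to 4.52 in 6 ketotic cows, a difference of 0.96 (adjusted p = 0.161), the highest of all members. Healthy cow 7 gave the lowest value, and without it the difference was 0.53. SEC14L1 had a difference of -0.96 (adjusted p = 0.0886), with ketotic cow 4 as low as -3.69.

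Traffic genes also differed in how the healthy liver compared with the reference tissues. COPII genes had a median healthy level of 0.73 on the log2 scale relative to the reference: SAR1B averaged 1.93 ± 0.939 (SD, n = 7), SEC31A 1.83 ± 0.783, SEC16B 1.51 ± 0.640 and SEC24A 1.25 ± 1.14. The 2 signal peptidase genes had a median of 0.96, with SEC11C at 1.45 ± 0.488 and SEC11A at 0.47 ± 0.464. RAB6B (-3.61 ± 1.59, 6 cows) and RAB3C (-3.13 ± 0.893), known from neurons, and COPG2 (-2.65 ± 0.506) were the lowest. Retromer genes had a median of -0.76 and RAB genes of exocytosis one of -0.74. These are ratios to a tissue pool and do not rank transcripts by abundance; the SDs of SAR1B, SEC31A and SEC24A include healthy cow 7, which was lowest for each.

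In the main processing, genes below the array median in healthy cows were called lower more often. Of 83 such members 24 fell, and of 57 at or above it 8 fell. In all tested genes the shares were 15.3% and 9.04%. With arrays scaled to one spread, 11 and 7 members fell, so their shares were about level. In all tested genes the order was then reversed: 181 of 3751 below the array median fell, and 334 of 3207 at or above it. The wider spread of the ketotic arrays, given above, goes with the pattern of the main processing, and its part in the calls was not tested further.

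**Figure D3:**
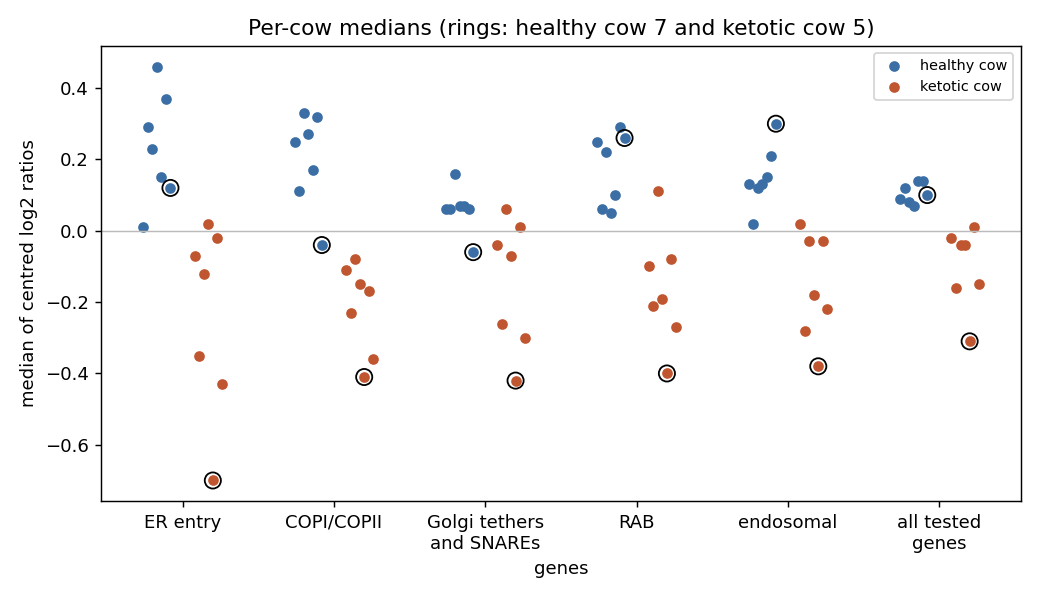
For each cow, the median over the tested genes of a class after every gene was centred on the midpoint of its group means, on the log2 scale; rings mark healthy cow 7 and ketotic cow 5. Healthy cows lie higher in each class, and the same holds for all tested genes (0.07 to 0.14 against -0.31 to 0.01).

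Per-cow medians showed which cows carried the difference. For COPI and COPII genes healthy cows ran from -0.04 to 0.33 and ketotic cows from -0.41 to -0.08, without overlap. For ER entry genes they ran from 0.01 to 0.46 and from -0.70 to 0.02, and for endosomal genes from 0.02 to 0.30 and from -0.38 to 0.02, with a slight overlap each. Golgi tethers (-0.06 to 0.16 against -0.42 to 0.06) and RAB genes (0.05 to 0.29 against -0.40 to 0.11) overlapped more. Medians over all tested genes did not overlap either (0.07 to 0.14 against -0.31 to 0.01), so the separation was not particular to COPI and COPII genes. Ketotic cow 5 had the lowest median in all 5 classes and over all tested genes, and the lowest ketotic value for 22 of the 32 genes that fell. Without ketotic cow 5, 28 members fell, all of them among the 32, and none rose, beside 9.85% of all genes lower.

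Secretory pathway genes outside the symbol rule were counted from a list chosen with earlier results of these data known. Of 84 tested genes on it 21 fell (25.0%, beside 12.4% of all genes) and none rose, with a median difference of -0.42. Without healthy cow 7, 34 fell (40.5%, beside 18.4%). With arrays centred on the same probes 12 fell (14.3%, beside 7.09% of all genes) and with one spread 14 (16.7%, beside 7.4%). Quantile normalisation gave 12 (14.3%, beside 6.52%) and the empty-spot covariate 5 (5.95%, beside 2.3%). With the liver in Cy5 alone none fell, beside 0.144%. All 3 KDEL receptors, which send escaped ER proteins back in COPI vesicles, fell: KDELR1 by 0.84 on the log2 scale (adjusted p = 0.00303), KDELR2 by 0.93 (0.0165) and KDELR3 by 1.08 (0.0139). DAD1 and STT3A of oligosaccharyl transferase, which glycosylates proteins behind the SEC61 channel, fell by 1.02 (adjusted p = 0.00250) and 0.70 (0.0185), while STT3B had a difference of -0.53 (0.121) and OST4 of -0.09 (0.775). SNX3, a partner of retromer, fell by 1.10 (adjusted p = 0.00243) and SNX1 by 0.75 (0.0266); SNX2 and SNX5 had differences of -0.50 (0.270) and -0.43 (0.152). Of the receptors that retromer carries, IGF2R fell by 1.24 (adjusted p = 0.00194), and M6PR by 0.55 (0.0405), while SORT1 had a difference of -0.40 (0.322). NSF, the ATPase that recycles SNAREs, fell by 0.96 (adjusted p = 0.0266), CLTA, a clathrin light chain, by 0.51 (0.0273; CLTB -0.30, 0.168 and CLTC -0.58, 0.118, did not pass) and TSG101 of ESCRT-I by 0.57 (0.0305).

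Scaling set how many members passed. With arrays centred on the same 7426 probes 24 members fell and 1 rose, beside 7.09% of all genes lower and 1.77% higher. With one spread 18 fell and none rose, beside 7.4% lower and 0.503% higher. Quantile normalisation gave 17 lower and none higher, beside 6.52% and 0.489%. Without any centring 67 fell and none rose, beside 35.4% and 0.158%. The Cy3 liver arrays alone gave 24 lower members and none higher, beside 8.73% and 0.552%, and the Cy5 liver arrays alone gave none, beside 0.144% and 0.0131%. With each cow's empty-spot share as a covariate 6 fell and none rose, beside 2.3% and 0.115%: COPG1, SEC24C, TMED4, TMED9, TRAPPC3 and AP1M2. Of the 33 called members 16 kept their call and direction under all 4 other scalings: SRP14, SEC61A1, SEC61B, COPG1, SEC24C, TMED4, TMED9, TRAPPC1, TRAPPC3, STX2, STX8, RAB5C, RAB7A, RAB22A, VPS25 and VPS33A. The retromer genes were not among them; VPS35, VPS29, VPS26A and VPS26B each had an adjusted p of 0.0696 or more with one spread. The median over all genes was -0.58 with no centring and -0.05 with the same probes, and the members' median lay below it by 0.12 and 0.13. All 32 falls kept a negative sign under each of the 4 scalings and with either dye alone.

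**Figure D4:**
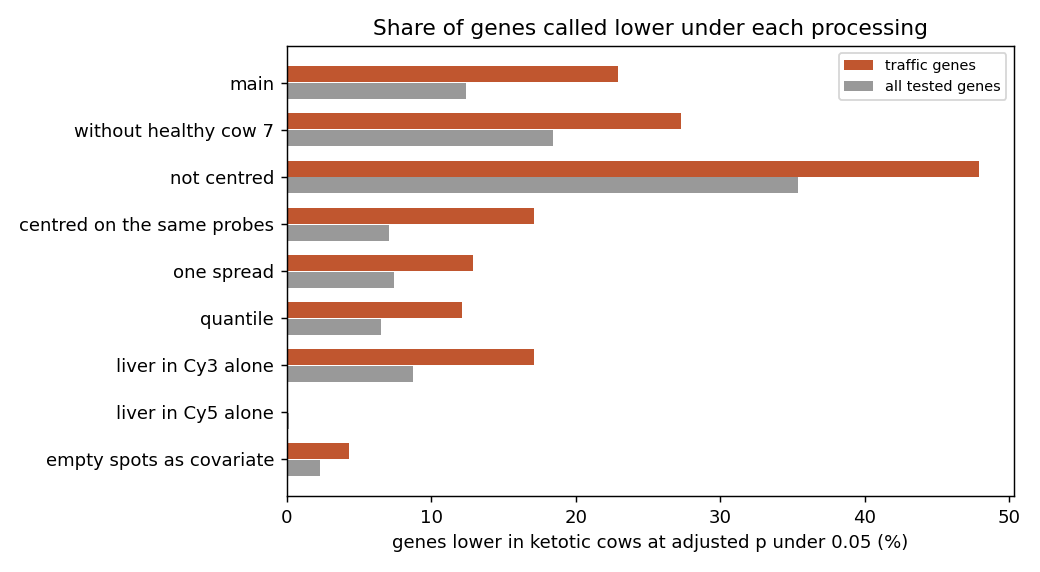
Share of tested traffic genes and of all tested genes called lower in ketotic cows (limma adjusted p under 0.05) under 9 ways of processing. The traffic genes' share is 22.9% in the main processing and 4.29% with empty spots as a covariate, and moves with that of all genes (12.4% and 2.3%).

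Markers of other cell types were counted beside these results, and their part in them was not tested. Of 7 macrophage markers 3 fell (median difference -0.80, per-cow medians 0.56 to 3.08 in healthy and 0.92 to 2.71 in ketotic cows), and of 5 bile duct markers 1 fell (-1.87 to -0.55 against -2.36 to -1.44). Of 4 lymphocyte markers 2 fell and 1 rose (-1.08 to -0.20 against -1.18 to -0.44), and of 2 neutrophil markers 1 rose (0.28 to 0.85 against 0.45 to 1.86). The 7 stellate cell markers (-3.32 to 0.63 against -3.96 to -2.52), 5 endothelial markers (-0.11 to 3.91 against 1.0 to 3.69), 1 erythroid marker and 4 markers of secretory tissues of the reference held no call. Among healthy cows the stellate, lymphocyte and bile duct maxima and the endothelial and macrophage minima were all healthy cow 7. The other healthy cows began at 1.52 for macrophage and 2.52 for endothelial markers. Without that cow 4 macrophage, 2 bile duct, 1 stellate and 1 hepatocyte marker fell, and the lymphocyte and endothelial counts stayed as they were. Only 1 of the 2 neutrophil markers could then be tested, and it did not pass. Hepatocyte markers, of which 2 of 11 rose, were high in all cows, with per-cow medians of 3.03, in healthy cow 7, to 7.70.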

How the data were processed

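The authors deposited a log2 ratio of both dyes for each spot; background correction and normalisation are not given in the sources used here. Of 27648 spots, adjacent pairs were averaged to 13824 probes. Ratios at the ceiling of 16.61 (6245 values) and 103458 empty cells were taken as missing. The sign of Cy3 liver arrays was turned, and each array was centred on its median. A cow needed both arrays and a gene at least 5 cows per group. Names came from the platform annotation; all 147 gene IDs were in the RefSeq table of the assembly ARS-UCD2.0, with the same symbols, and no coordinates or probe sequences were used, so cross-hybridisation between close paralogues was not checked. Of the probes, 8645 had 1 symbol, 105 several and 5074 none.

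Groups were compared with limma 3.58.1 (R 4.3.3), lmFit and eBayes over 6958 genes, two-sided, with Benjamini-Hochberg adjustment at 0.05; SE is the moderated standard error. The fit was tried on simulated data for this comparison (20 runs over 6958 genes). It recovered 18.3% of genes changed by 0.5, 65.9% by 1 and 93.9% by 2, with 4.01% of calls false. In each run most genes were left unchanged, whereas in the cows most genes had a negative difference. These shares therefore describe the simulated data only, and the share of false calls among the real ones was not measured. An exact permutation test over cows was an alternative for named genes. The members, classes and lists were chosen with earlier results of these data known. Genes were named if they passed, were the 3 highest differences or 3 nearest misses, had the 2 smallest p in a class without a call, or were among 27 fixed genes, of which 21 were tested; SSR4, COPA, SAR1A, ARF1, RAB11A and AP2M1 were not analysed here. Other named genes, and the subgroups within classes, were chosen after their values were seen. The number of arrays limits the precision, and the labels give no hybridisation batch. Alternatives covered scaling, dye, filters, model, threshold and each cow left out. Figures were drawn with matplotlib 3.10.9.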

Additional observations from a re-analysis of the deposited data

Results flagged for a closer look

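For 49 named genes, Dixon's criterion was applied to the lowest and highest cow of each group, that is, whether its gap to the next cow took up most of the group's range. This gave 13 distant cows in 98 groups, with 4.9 the number by chance (about 1 group in 20). Since genes measured in the same cow share its arrays, the 7 that came from healthy cow 7 do not count as separate events.

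Healthy cow 7 was lowest for SAR1B (-0.18, next 2.13), SEC14L6 (0.75, next 3.0), SEC62 (-0.68, next 0.94) and SSR1 (-0.27, next 0.14), and highest for AP1M1 (1.02, next 0.04), SEC14L1 (0.18, next -0.93) and TMED10 (2.32, next 0.51). Healthy cow 5 was lowest for RAB22A (-1.47, next -0.80).

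Among ketotic cows, cow 5 was lowest for RAB11B (-1.13, next -0.75) and VPS26A (-2.49, next -1.54) and highest for STX5 (1.34, next 0.19). Ketotic cow 7 was lowest for COPG1 (-1.69, next -1.12) and ketotic cow 4 for SEC14L1 (-3.69, next -2.12).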

How the results depend on the processing

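No called gene, count or class median reversed; of the other members 28 changed sign with no centring (SSR1 to -0.11, SEC16A to -0.23 and STX5 to -0.27 among them) and 14 without healthy cow 7. With no centring 67 members fell and none rose, with a median difference of -0.70. In that fit 35.4% of all genes fell, with a median of -0.58. By class 10 ER entry, 16 COPI/COPII and 19 endosomal genes then fell, with medians of -0.82, -0.77 and -0.66. The medians were -0.54 for Golgi tethers and SNAREs and -0.56 for RAB genes. Centring on probes present everywhere gave a members' median of -0.18, 4 lower COPI/COPII genes and an endosomal median of -0.13. Leaving out healthy cow 7 as well, chosen after seeing the data, gave -0.19 and -0.14, and 2 members rose. With one spread 18 members fell and none rose (4 COPI/COPII, 5 RAB and 2 endosomal genes), and with quantile normalisation 17 fell and none rose (4, 4 and 2). With the liver in Cy3 alone no member rose, and 6 RAB and 4 endosomal genes fell. With the liver in Cy5 alone 0 of all members passed in limma in either direction, and so 0 in each class, while 39 had an unadjusted p under 0.05, 38 of them lower; 11 of all genes fell there (0.144%). The Cy3 arrays alone gave 24 lower members. With each cow's empty-spot share as a covariate 6 members fell and 0 rose: 0 ER entry, 4 COPI/COPII, 1 Golgi, 0 RAB and 1 endosomal. Array weights gave 5 lower ER entry genes, beside 18.5% of all genes lower. With cows of 1 array kept, 3 Golgi genes fell and none of the members rose, beside 8.22% of all genes lower. With genes valued in every cow, 3 Golgi genes fell and the RAB median was -0.35, beside 15.8% of all genes lower. Leaving out each cow in turn gave 26 to 38 lower and 0 to 1 higher members, with medians from -0.34 to -0.26. Over these fits 8.92% (without healthy cow 6) to 18.4% (without healthy cow 7) of all genes were called lower. The counts lower were 3 to 6 for ER entry, 4 to 9 for COPI/COPII, 3 to 5 for Golgi, 8 to 10 for RAB and 6 to 8 for endosomal genes. The class medians ran from -0.52 to -0.37, -0.44 to -0.36, -0.17 to -0.06, -0.28 to -0.10 and -0.34 to -0.24 in the same order. Of 33 calls 24 held in every such fit. The cause of these changes was not tested. No paired analysis was possible because cow numbers only name cows and pair none across the groups. The remaining alternatives (ceiling values kept, zeros as missing, robust trend, another probe choice, updated symbols, a threshold of 0.10) kept every count within 1.5 times.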
